A study of Homo sapiens with 5 samples.

Results

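Chromosomes 17 and 19 are gene-dense human chromosomes, and their genes are described here as blocks along the chromosome. The members are the 1767 genes of these chromosomes, without symbols that start with ZNF, that had 20 or more reads over 5 libraries, of 15530 genes with as many reads in all. Of these, 916 lie on chromosome 17 and 851 on chromosome 19. Both chromosomes were chosen by their high median gene level in the CFIm59 knockout lines, so every CFIm59 expression value below is a description with no test. The threshold of 20 reads had no sharp step: 4 genes of chromosome 17 and 11 of chromosome 19 held exactly 20 reads, and 4 and 10 held 19 and stayed outside. A member had a median of 5 poly(A) sites with reads and 259 reads over the 5 libraries.

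The study sequenced poly(A) sites, the places where an mRNA is cut and given its tail, in HEK293T, a human embryonic kidney line. There was 1 wild type control library, 2 libraries from CFIm59 knockout cell lines 1 and 2, and 2 from CFIm68 knockout cell lines 1 and 2. All 4 knockout lines were made in HEK293T with CRISPR/Cas9 and all cells grew in 5% serum. The sources used here do not give whether a line came from a single cell. With 1 control and 2 lines, an exact permutation test of a single value cannot go below p = 0.333.

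Cleavage factor Im is a complex of a small subunit that binds UGUA in the RNA and a larger subunit, either CFIm59 (gene CPSF7) or CFIm68 (gene CPSF6). It recruits the cleavage machinery, and distal poly(A) sites of many genes depend on it, so its loss is known for moving cleavage toward proximal sites and shortening 3′ UTRs. Gene dosage is the level of a gene's product that follows from how many copies of the gene a cell holds; when a chromosome piece is gained, the genes along it tend to rise together. HEK293T cells have an abnormal karyotype that varies between cultures. DNA copy number was not analysed here.

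The libraries held 1673687 to 2924266 reads, of which 6.01 to 10.8% were mitochondrial. In CPM (reads scaled by TMM to a common library size), CPSF6 was at 119 in the control and at 47.6 and 45.4 in the CFIm68 lines, a log2 change of -1.35 ± 0.25 (SE, edgeR quasi-likelihood adjusted p = 0.00053). CPSF7 was at 59.4 in the control and at 68 and 55.1 in the CFIm59 lines. In the CFIm68 lines it was at 127 and 203, a log2 change of 1.47 ± 0.29 (SE, edgeR quasi-likelihood adjusted p = 0.00096). Where the edit of CPSF7 lies was not examined, and poly(A) reads count only transcript ends. The CPSF7 level therefore does not check the CFIm59 label. All 7 HEK293T markers had reads (summed CPM 810 to 1332). Of 10 blood cell markers 6 had a read (1.20 to 9.23 CPM in sum), of 5 epithelial markers 2 (5.03 to 11.7), of 5 fibroblast markers 4 (8.96 to 17.8) and of 7 muscle markers 5 (33.5 to 47.8).

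The elements that the machinery reads lie at the transcript ends. The 9 ends below belong to genes whose site use is described further on. Each is the last 30 bases of the annotated transcript (GENCODE v29, GRCh38, written as DNA), with the hexamer AATAAA or ATTAAA in capitals, which is the poly(A) signal bound by the cleavage and polyadenylation specificity factor.
CDC27: atatcaaAATAAAtactatgacaaaaacaa
CCDC47: acatctATTAAAgtgattgacaaaatctca
MAP2K4: cATTAAAttatctgtgcatttcacaccagg
PRKAR1A: aagtAATAAAaagagatgaaataatttaaa
PSMD12: tggagAATAAActcatactttaaaagatca
CEBPG: ataaAATAAAaaacaactttggaacaatga
SAE1: ggaatgatAATAAAgttacttgctttagga
TIMM50: cAATAAAgtacatcccagacgccacacctg
GPI: catgtagaaaAATAAAgatgccacggagga
The first 6 genes moved to their proximal site in the CFIm68 lines. SAE1 and GPI did so in the CFIm59 lines, and TIMM50 moved to its distal site in the CFIm68 lines. These are annotated ends matched by transcript or gene name and need not be the sites counted.

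Ends on chromosome 19 were richer in G and C than elsewhere. The median GC content of the last 200 bases was 45% on chromosome 17 and 53% on chromosome 19, against 37% off both chromosomes. The letters TGTA, the DNA form of UGUA, occurred on the transcript strand of those 200 bases in 60.2% of chromosome 17 genes and 48.0% of chromosome 19 genes, against 72.1% off both. Chromosomes 16 and 22, also gene-dense, lay near chromosome 17, with 59.4 and 60.2%. The exact hexamer AATAAA in the last 30 bases was about as frequent everywhere, in 49.0, 49.8 and 51.1% of genes of chromosomes 17, 19 and the others.

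Members took a larger part of the mRNA in the CFIm59 lines. Chromosome 19 members held 7.05% of the control's nuclear reads, 9.28 and 9.31% in the CFIm59 lines and 7.40 and 7.67% in the CFIm68 lines. The CFIm59 lines were thus at 1.32 ± 0.003 (SD, n = 2) of the control share and the CFIm68 lines at 1.07 ± 0.027. Chromosome 17 genes held 6.29% in the control, 7.37 and 7.96% in the CFIm59 lines and 6.25 and 6.35% in the CFIm68 lines. Their ratios were 1.22 ± 0.066 and 1.00 ± 0.010. They include MTRNR2L1, a highly read nuclear copy of mitochondrial sequence whose counts are uncertain. Both CFIm59 lines lay above every other library for both chromosomes. Chromosome 22, of like gene density, went the other way in the CFIm59 lines, with a ratio of 0.814, and chromosome 16 was at 1.04. For chromosome 19 in CFIm59 line 1, the shallowest library, the 95% Wilson interval was 9.24 to 9.33%. It covers counting error within that library only, not the spread between lines, and the reads carry no molecular identifiers.

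A share can be moved by a few abundant genes, so gene medians were also taken. The median log2 difference from the control, set against the median of genes off both chromosomes, was 0.40 and 0.45 on chromosome 19 in the CFIm59 lines and 0.01 and 0.11 in the CFIm68 lines. On chromosome 17 it was 0.23 and 0.34 in the CFIm59 lines and -0.05 and 0.00 in the CFIm68 lines. Of 23 chromosomes, 19 was highest over the 2 CFIm59 lines together and 17 came after 9 (at 0.39), and chromosome 22 was lowest at -0.32. In line 1 alone chromosome 9 was highest, at 0.55, and 17 came after 9, 19 and 18 (0.24). Chromosome 9 was also high in the CFIm68 lines, at 0.16 and 0.23. In both CFIm59 lines at once, 66.2% of chromosome 19 members and 56.9% of chromosome 17 members lay above the median of the other chromosomes, against 39.4% of genes there. In fold terms the CFIm59 medians were 1.34 on chromosome 19 and 1.21 on chromosome 17.

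**Figure D1:**
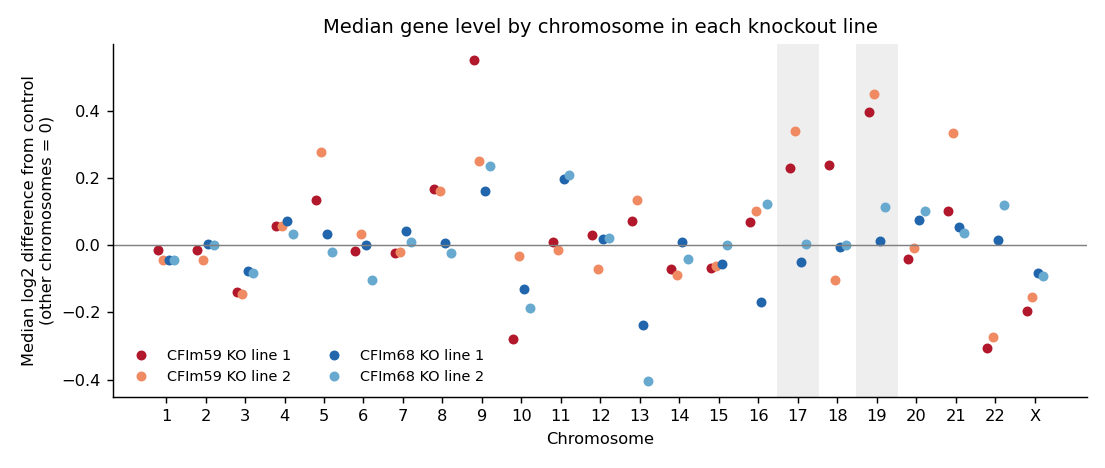
Median log2 difference from the control of the genes of each chromosome (y axis, with the median of genes off chromosomes 17 and 19 at 0) for each of the 4 knockout lines (points). Chromosomes 17 and 19 are shaded; both CFIm59 points lie at 0.23 or more there and the CFIm68 points between -0.05 and 0.11.

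The pattern along the chromosomes differed between them. Chromosome 19 was higher on both arms: its short arm was at 0.38 and 0.45 in the CFIm59 lines and its long arm at 0.42 and 0.45. All 11 windows of 5 Mb with 10 or more genes were above 0 in both CFIm59 lines, the lowest at 0.08 and 0.32 from 20 to 25 Mb (11 genes). Shorter pieces were not always high: from 30 to 31 Mb 6 genes were at -0.35 and 0.03. The highest began at 55 Mb near the end of the long arm (57 genes), at 0.88 and 0.62, and the CFIm68 lines were at 0.12 and 0.29 there. In its last stretch, from 57 to 59 Mb, 25 members were at 1.26 and 1.19 in the CFIm59 lines and 0.64 and 0.70 in the CFIm68 lines. This stretch lies among the zinc finger repressor clusters of chromosome 19, whose 180 genes with ZNF symbols were left out of the members and were themselves at 1.13 and 0.98, and at 0.39 and 0.40. ZNF genes of other chromosomes were at 0.19 and 0.14 in the CFIm59 lines.

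Chromosome 17 had a step. The 172 genes from 25 to 40 Mb of the long arm, bounds picked after the values were seen, were at 0.73 in each CFIm59 line, a 1.67-fold higher level, and at -0.07 and -0.01 in the CFIm68 lines. Of these, 139 (80.8%) lay above the other chromosomes' median in both CFIm59 lines. In CPM, the median gene of the stretch was at 14.2 in the control, 24.4 and 24.7 in the CFIm59 lines, and 13.1 and 14.6 in the CFIm68 lines. The 3 members from 25 to 26 Mb were at -0.32 and 0.01 in the CFIm59 lines, and the higher level began with the 21 genes from 26 to 27 Mb, at 0.66 and 0.80. The rest of chromosome 17 was at 0.14 and 0.28 in the CFIm59 lines, so leaving the stretch out lowered the value of line 1 by over 1.5 times.

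The far edge of the stretch was sharper in line 1 than in line 2. From 38 to 39 Mb 21 genes were at 0.55 in both CFIm59 lines, and from 39 to 40 Mb 6 genes were at -0.24 and 0.53. Line 2 was still at 0.31 from 40 to 41 Mb, where line 1 was at -0.11. The 6 genes that follow, on both sides of this edge, were picked after their values were seen. TOP2A, the topoisomerase that untangles chromosomes before division, at 38544778 (hg19), was at 305 CPM in the control, 433 and 462 in the CFIm59 lines and 267 and 225 in the CFIm68 lines. CDK12, the kinase of elongating RNA polymerase II, at 37688526, was at 38.1, then 65.6 and 76.1, then 27.6 and 39.7. The keratin gene KRT10, at 38974369, was at 81.8, then 118 and 139, then 68.3 and 81.6. All 3 genes had both CFIm59 lines above the other 3 libraries, as did 48.0% of 896 members and 20.7% of all 7430 genes outside the ZNF family with a mean of 50 or more reads per library. Less than 1 Mb on, EIF1, a factor that helps the ribosome find the start codon, at 39847250, was at 892 in the control and lower in both CFIm59 lines, at 511 and 746. TUBG1, the gamma-tubulin that seeds microtubules, at 40767254, was at 101, then 76.3 and 89.7. The transcription factor gene STAT3, at 40465341, was at 37.0, then 25.6 and 46.9, on both sides of the control.

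The stretch also stood above the CFIm68 lines, with no control in the comparison. Among genes with a mean of 50 or more reads per library, both CFIm59 lines lay above both CFIm68 lines for 68 of 78 genes of the stretch (87.2%), 53.5% of the 818 other members and 29.1% of all 7430 genes outside the ZNF family. The CFIm59 lines in this count are those by which the chromosomes were picked, so it is a description.

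**Figure D2:**
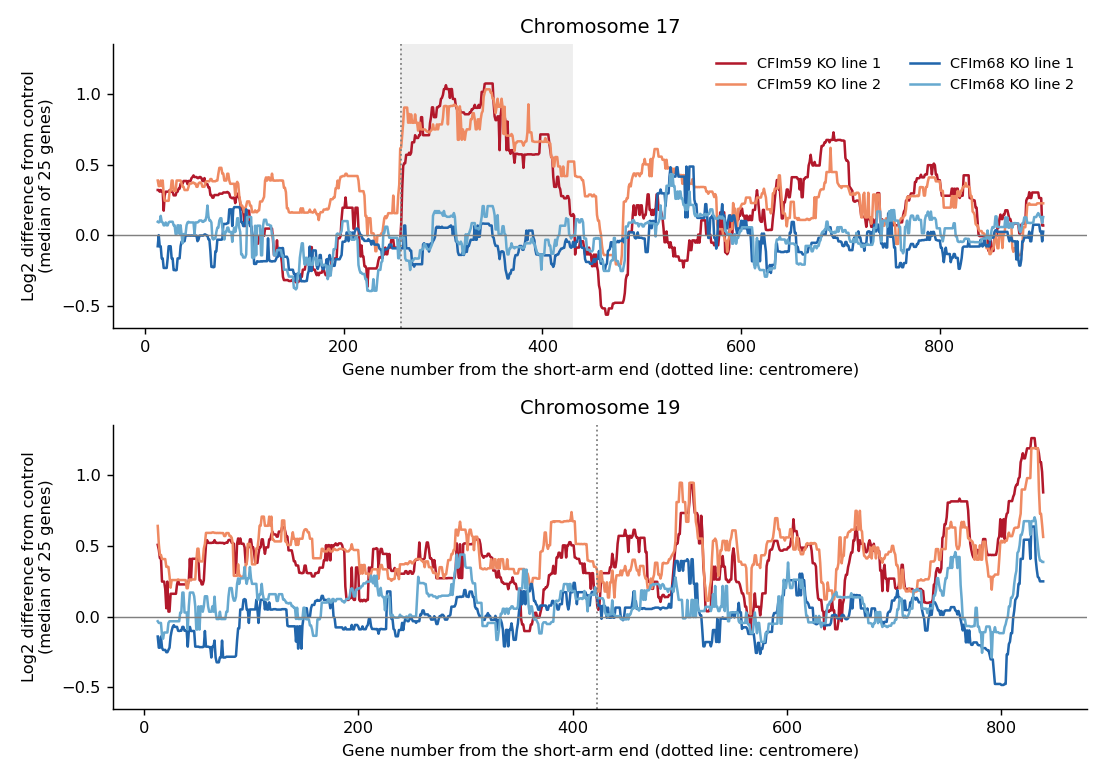
Running median over 25 neighbouring genes of the log2 difference from the control (y axis, other chromosomes' median at 0) against gene order from the short-arm end (x axis), 1 curve per knockout line. The shaded genes are those of chromosome 17 from 25 to 40 Mb, whose median is 0.73 in both CFIm59 lines, while chromosome 19 is above 0 over nearly all of its length in those lines.

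The 2 CFIm59 lines were not alike everywhere, and this comparison uses no control. From 8 to 24 Mb on the short arm of chromosome 17, 121 genes were at -0.17 in line 1 and 0.19 in line 2, and the median gene was 0.33 higher on the log2 scale in line 2. From 40 to 45 Mb, 115 genes were at -0.09 and 0.35, a median difference of 0.27 between the lines. Over the end of the short arm, up to 5 Mb (72 genes), the lines were close, at 0.35 and 0.37. They were also close over 25 to 40 Mb as a whole, but not window by window. There the median of line 2 minus line 1 was -0.06 from 25 to 30 Mb, -0.14 from 30 to 35 Mb and 0.21 from 35 to 40 Mb. It was 0.28 from 20 to 25 Mb, 0.22 from 45 to 50 Mb and -0.18 from 60 to 65 Mb. Whether the difference between lines comes in blocks was not tested. On chromosome 19 the lines were 0.02 to 0.06 apart by arm, but less alike by window. There line 2 minus line 1 ran from -0.12 (55 to 60 Mb) to 0.53 (20 to 25 Mb, 11 genes), and was 0.14 from 45 to 50 Mb. With 1 library per line none of these differences has a replicate.

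**Figure D3:**
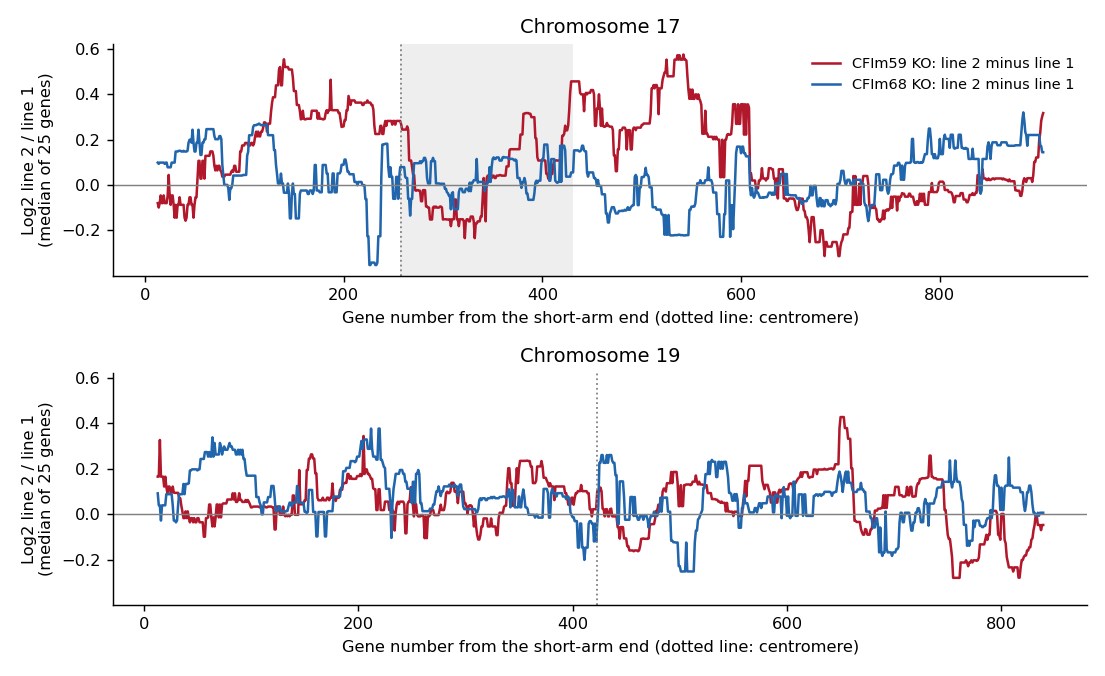
Running median over 25 neighbouring genes of the log2 ratio of line 2 to line 1 within each knockout (y axis) against gene order from the short-arm end (x axis). On chromosome 17 CFIm59 line 2 is higher by 0.33 from 8 to 24 Mb and by 0.27 from 40 to 45 Mb. These lie on either side of the shaded 25 to 40 Mb stretch, within which the difference changes sign.

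Windows as high lay on other chromosomes too. Of 465 windows of 5 Mb on other chromosomes, 17 were over 0.5 in both CFIm59 lines, and 5 of the 28 windows of chromosomes 17 and 19 were. The highest elsewhere reached 1.4 in line 1. The genes were also split by GC content of the transcript end. With ends under 40% GC, chromosome 17 genes were at 0.21 and 0.26 and chromosome 19 genes at 0.44 and 0.46 in the CFIm59 lines, against -0.06 and -0.09 elsewhere. With ends of 55% or more they were at 0.21 and 0.33, and at 0.35 and 0.41, against 0.08 and 0.12. From 45 to under 50% chromosome 17 genes were at -0.04 and 0.19 and chromosome 19 genes at 0.37 and 0.31, against -0.11 and -0.04, so line 1 was close to the other chromosomes there on chromosome 17. The part of GC content in these levels was not tested.

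Of 1657 members in the edgeR fit, 183 were called higher in the CFIm59 lines than in the control (11.0%, against 6.98% of all genes) and 52 lower (3.14%, against 6.87%). In the 25 to 40 Mb stretch 38 of 160 were called higher and 1 lower. Without CFIm59 line 1 or 2 the higher count was 117 or 110, and without line 1 the lower count was 29. DESeq2 called 36 higher and 9 lower. Because the contrast chose the members, nothing is read from these counts.

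SLFN11, a Schlafen family gene of the interferon response that makes cells sensitive to DNA damage, at 33677589 on chromosome 17, was without a read in both CFIm68 lines and the control, and at 63.8 and 65.4 CPM in the CFIm59 lines. With each library at 0 set to a floor of 3 reads, the mean of the CFIm59 lines was at least 48.8-fold higher. In bulk RNA, more cells that express a gene and more RNA per cell cannot be told apart. TMEM132E, a membrane protein gene at 32966336, was at 1.87 in the control, 33.4 and 56.8 in the CFIm59 lines and 8.28 and 18.5 in the CFIm68 lines. All 4 knockout lines lay above the control. LGALS3BP, a secreted galectin-binding glycoprotein at 76967337, was at 19.8, then 148 and 158, then 59.3 and 17.2.

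SUPT6H, the histone chaperone that travels with RNA polymerase II, at 27029248, was at 22 in the control, 74.5 and 58.8 in the CFIm59 lines and 33.1 and 35.7 in the CFIm68 lines. Its neighbour RAB34, a Rab GTPase needed for cilia, at 27041302, was at 36.6, then 119 and 101, then 50.03 and 53.4. SUPT6H was 3.03-fold the control in the CFIm59 lines. CPD, carboxypeptidase D of the secretory pathway, at 28795696, was at 53.4, then 101 and 97.5, then 46.2 and 33.5. RAB11FIP4, an effector of Rab11 in membrane recycling, at 29860066, was at 15.7, then 36.4 and 43.6, then 11.0 and 15. All 4 genes lie in the 25 to 40 Mb stretch. SUPT6H and RAB34 were picked for their rise in the CFIm59 lines. CPD and RAB11FIP4 were picked for their difference between the knockouts, by a rule that asks for no overlap of the knockout lines. Both CFIm59 lines were above the other libraries in each gene. The same held for 48.0% of members and 20.7% of all genes outside the ZNF family with a mean of 50 or more reads per library.

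Some members of chromosome 17 went against the trend. SERPINF1, the secreted factor PEDF, was at 56.0 in the control, 2.38 and 16 in the CFIm59 lines and 37.6 and 19.4 in the CFIm68 lines. PYCR1, the last enzyme of proline synthesis in mitochondria, was at 215, then 79.3 and 102, then 142 and 228. The HOXB cluster of body-axis regulators had no common direction. HOXB6 was at 71.7 in the control, 21.5 and 35.4 in the CFIm59 lines and 47.3 and 90.8 in the CFIm68 lines, HOXB9 was at 32.9, then 14.3 and 13.2, then 26.2 and 49.4, and HOXB2 was at 22, then 53.7 and 34.1, then 37.6 and 41.9. Over its 9 members the median in the CFIm59 lines was 0.06 above the other chromosomes, with 3 above in both lines and 3 below in both.

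On chromosome 19, SHC2, an adaptor of receptor tyrosine kinases, at 416592, was at 5.97 CPM in the control, 42.9 and 42.8 in the CFIm59 lines and 17.6 and 10.1 in the CFIm68 lines. HKR1, a Krüppel-related zinc finger gene without a ZNF symbol, at 37855348, was at 8.59, then 47.7 and 37.4, then 11.7 and 10.6. DYRK1B, a kinase that holds cells in quiescence, was at 10.8, then 47.7 and 25.9, then 16.2 and 17.2. JOSD2, a deubiquitinase, was at 10.8, then 33.4 and 40.3, then 14.8 and 15.4. These 4 were picked for their rise in the CFIm59 lines, and the CFIm59 lines did not overlap the other libraries in them, as in the 20.7% of all genes given above.

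Lower members of chromosome 19 included a pair of neighbours. PPP1R14A, an inhibitor of myosin phosphatase, at 38741878, had 116 control reads, against 1 and 2 in CFIm59 lines 1 and 2. Scaled for depth, the control was 72.6 times line 1 (95% counting interval 12.8 to 2894) and 52.6 times line 2 (14.2 to 440). SPINT2, a membrane serine protease inhibitor at 38783088, was at 69.8 CPM in the control, 11.9 and 13.6 in the CFIm59 lines and 111 and 109 in the CFIm68 lines. FOSB, a component of the AP-1 transcription factor, was at 35.5, then 12.5 and 9.05, then 34.2 and 57.8. Both lie among members that were mostly higher in these lines. IFI30, a lysosomal thiol reductase, was at 93.0, then 25 and 29.2, then 95.6 and 85.6, but it has a site listed under another gene too.

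**Figure D4:**
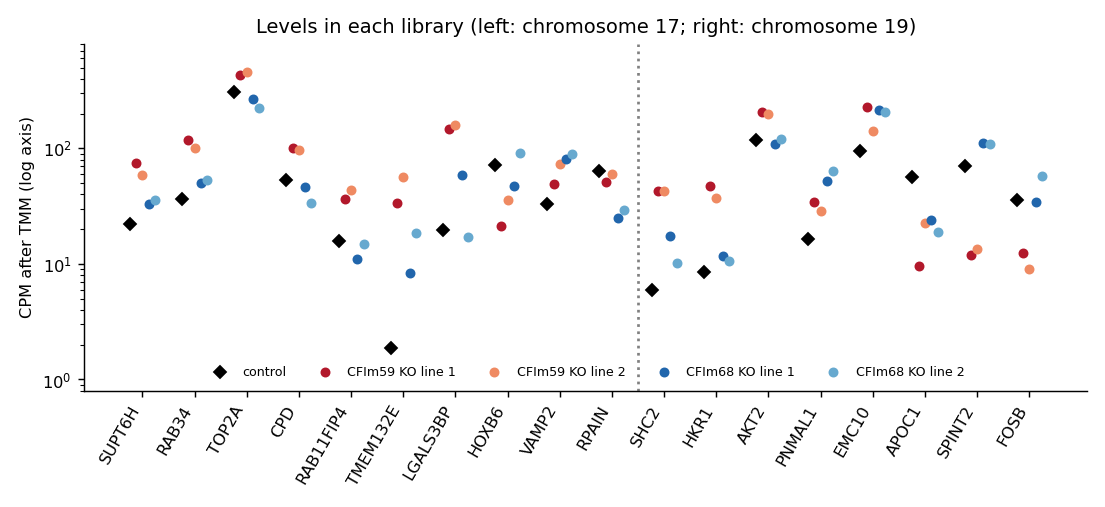
Level of 18 member genes in each library (CPM after TMM scaling, log axis), 1 point per library, genes of chromosome 17 left of the dotted line and of chromosome 19 right of it. For SUPT6H both CFIm59 lines are at 58.8 or more and the other libraries at 35.7 or less, while for SPINT2 both are at 13.6 or less.

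CFIm68 against control was not the contrast behind the choice, but it shares the control with it. Of 1657 members, 18 rose (1.09%, against 1.58% of all genes) and 22 fell (1.33%, against 2.02%). The median log2 change of members was 0.02, as was that of all genes. Both shares of calls were near or below those of the whole table. DESeq2 called 2 higher and 2 lower, and gave no adjusted p to 15 of the 18 and 13 of the 22. In the 25 to 40 Mb stretch 2 genes were called higher and 1 lower.

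PNMAL1, a paraneoplastic antigen-like gene of chromosome 19, rose from 16.4 CPM to 52.1 and 63.1 (log2 1.80 ± 0.32 SE, edgeR adjusted p = 0.000362), with the CFIm59 lines between them at 34.6 and 28.8. EMC10, a subunit of the complex that inserts membrane proteins in the endoplasmic reticulum, rose from 94.1 to 216 and 207 (1.17 ± 0.27, edgeR adjusted p = 0.00714), and the CFIm59 lines were at 230 and 141. VAMP2, the vesicle SNARE of synapses on chromosome 17, rose from 32.9 to 80.7 and 89.1 (1.37 ± 0.29, edgeR adjusted p = 0.00318), and the CFIm59 lines were at 48.9 and 73.2. These genes were picked for their rise in the CFIm68 lines, and in each the CFIm59 lines were above the single control too. The share of all genes with all 4 knockout lines on 1 side of the control was not counted. Nothing is therefore read from such an order, here or in other named genes. TMEM132E, named above, also rose (edgeR adjusted p = 0.00443). LSR, FCGRT and CLPTM1 rose by 1.01 to 1.21 on the log2 scale, though FCGRT and CLPTM1 lost the call without 1 of the CFIm68 lines. CLPTM1 lost it with DESeq2 as well.

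RPAIN, which carries replication protein A into the nucleus, fell from 63.1 to 25.2 and 29.1 (log2 -1.22 ± 0.27 SE, edgeR adjusted p = 0.00477), with the CFIm59 lines near the control at 51.3 and 59.7. APOC1, an apolipoprotein gene, fell from 56.0 to 23.8 and 19 (-1.38 ± 0.31, edgeR adjusted p = 0.00497), and the CFIm59 lines were also low at 9.54 and 22.6. RAC3, a small GTPase, fell from 165 to 79.4 and 86.4 (edgeR adjusted p = 0.0095). The CFIm59 lines were at 93.0 and 86.4 for RAC3, so all 4 knockout lines lay below the control. ATP5H, a subunit of ATP synthase, DCXR, a sugar reductase, NDUFA7, a subunit of respiratory complex I, ISYNA1, the first enzyme of inositol synthesis, and SNHG16, a small nucleolar RNA host gene with a site listed under another gene, fell by 0.81 to 0.92 on the log2 scale. Each of these 5 lost the call in 3 or more of the other fits tried, among them DESeq2 and the fit without 1 of the CFIm68 lines.

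Between the knockouts, which needs no control but uses the CFIm59 lines of the rule, 293 of 1657 members were called lower in the CFIm68 lines (17.7%, against 10.2% of all genes) and 55 higher (3.32%, against 9.44%). Without CFIm59 line 2 or CFIm68 line 1 the lower count was 166 or 186, and without CFIm59 line 1 the higher count was 29. DESeq2 called 111 lower and 17 higher. In the 25 to 40 Mb stretch 64 of 160 were lower and 1 higher. HCN2, a pacemaker channel gene of chromosome 19, was at 54.9 and 56.8 CPM in the CFIm59 lines and 14.5 and 16.3 in the CFIm68 lines, with the control between at 25.8. ISYNA1 had the same order, at 284 and 357, then 107 and 138, with the control at 215.

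The members were also grouped by role in 10 lists. In the CFIm59 lines 8 of the 10 list medians were above 0 and in the CFIm68 lines 2 were, against a median of 0.04 and 0.00 for all genes. Each list median is the log2 difference from the control minus that of genes on other chromosomes. The 21 genes of cell cycle and DNA replication were at 0.47 in the CFIm59 lines and -0.04 in the CFIm68 lines, with 16 above in both CFIm59 lines and 1 below. Of all genes 41.9% were above in both, and of the members 56.9% on chromosome 17 and 66.2% on chromosome 19. UHRF1, which carries DNA methylation through replication, was at 76.2 CPM in the control, 202 and 160 in the CFIm59 lines and 85.9 and 94.8 in the CFIm68 lines. LIG1, the ligase that joins Okazaki fragments, was at 31.0, then 68 and 69.5, then 30.0 and 30.0.

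The 25 genes of tumour suppression and growth signalling were at 0.49 and -0.01. AKT2, a kinase of insulin signalling on chromosome 19, was at 118 CPM, then 207 and 198, then 109 and 121. NF1, the Ras inhibitor at 29704691 in the 25 to 40 Mb stretch, was at 29.5, then 50.1 and 54.7, then 43.8 and 36.2. Outside the stretch, BRCA1, a DNA repair gene, was at 78.4, then 60.8 and 60.1, then 58.0 and 65.7. BRCA1 was thus below the control in both CFIm59 lines. Chromosome 17 without the stretch was at 0.14 and 0.28 in them, with 51.3% of its genes above the other chromosomes' median in both.

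The 35 genes of pre-mRNA processing were at 0.37 and -0.06, with 26 above in both CFIm59 lines (41.9% of all genes were) and 4 below. HNRNPUL1, an RNA-binding protein that works in DNA repair, was at 186 CPM, then 315 and 302, then 139 and 147. PTBP1, the splicing repressor, was at 378, then 569 and 568, then 316 and 439. The 21 chromatin regulators were at 0.40 and -0.01, and the 9 proteasome subunits at 0.16 and -0.04.

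Ribosomal proteins, 19 of the most read members, were at 0.28 in the CFIm59 lines and -0.27 in the CFIm68 lines. Other highly read genes were also lower in the CFIm68 lines. Among genes with 2500 or more reads, the median difference from the control was -0.28 on chromosome 17, -0.18 on 19 and -0.33 elsewhere. In the CFIm59 lines these medians were 0.14, 0.30 and -0.35. They are not set against the median of other chromosomes. RPL19 was at 2578 CPM, then 2414 and 3765, then 1523 and 1611. RPL26 was highest in the control, at 5053, then 2881 and 4269.8, then 3263 and 2874. The 13 genes of oxidative phosphorylation were at 0.08 and -0.38, with ATP5H and NDUFA7 called lower in the CFIm68 lines. The 13 genes of lipid and nucleotide metabolism were at -0.12 and -0.29, and the 10 early transcription factors at -0.08 and 0.06. Ribosomal protein genes have processed copies elsewhere in the genome, so their counts are uncertain where reads fit several copies. The same holds for MTRNR2L1, a nuclear copy of mitochondrial sequence on chromosome 17, at 2885 CPM, then 4886 and 5896, then 3489 and 1491.

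Site use within a gene was not used to pick the members and could be tested in both knockouts. For each gene the 2 most read sites were taken, and proximal use is the share of their reads at the site nearer the promoter. Of 545 members with enough reads at both sites, 59 moved to the proximal site in the CFIm68 lines (10.8%) and 13 to the distal one (2.39%). Over all 5869 genes tested the shares were 25% and 3.1%. DESeq2 called 23 and 4 members. By chromosome, 44 of 331 moved to proximal on chromosome 17 (13.3%) and 15 of 214 on chromosome 19 (7.01%). The median log2 change of the site ratio was 0.35 and 0.16 on the 2 chromosomes and 0.66 elsewhere; the difference between chromosomes was not tested.

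The spacing of sites, their GC content and UGUA were set beside these shares. Among pairs 1000 to under 4000 nt apart, 18.3% of 109 on chromosome 17 and 8.45% of 71 on chromosome 19 moved to proximal, against 45.6% of 1620 elsewhere. With transcript ends under 40% GC the shares were 17.4, 13.1 and 32.3%. With ends of 50% or more they were 7.02, 2.02 and 6.56%. With TGTA at least 2 times in the last 200 bases they were 18.3, 9.38 and 32.6%, and with none 5.83, 7.06 and 14.8%. At low GC both chromosomes were below the others, and at high GC chromosome 17 was near them. Being low at low GC was not particular to these 2 chromosomes. Chromosomes 16 and 22, which are among the others, were at 16.7 and 20.4% under 40% GC, and at 0 and 10% with 50% or more. Over all pairs with an annotated end, chromosome 16 was at 12.7% and chromosome 22 at 13.1%, close to the 13.1% of chromosome 17 and above the 7.01% of chromosome 19.

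**Figure D5:**
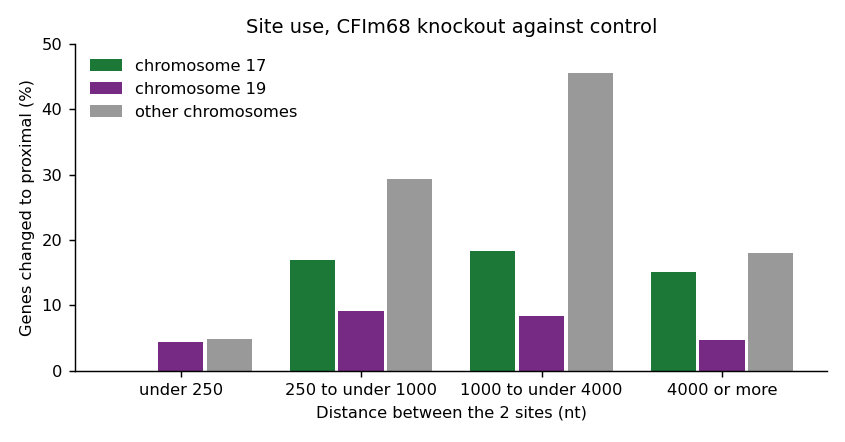
Share of genes that moved to the proximal site in the CFIm68 lines (y axis, percent, edgeR adjusted p under 0.05) by the distance between the 2 sites (x axis, nt), for chromosomes 17 and 19 and the others (bars). From 1000 to under 4000 nt the shares are 18.3, 8.45 and 45.6%.

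The largest changes included 3 on chromosome 17, between sites of the last exon. MED13, a subunit of the Mediator kinase module whose sites lie at 60023238 and 60019966, had a proximal use of 10.8% in the control (95% Wilson interval 6.13 to 18.3), 5.93 and 5.04% in the CFIm59 lines, and 68.2 and 65.0% in the CFIm68 lines (edgeR adjusted p = 3.46e-08 for CFIm68). CCDC47, a calcium-binding protein of the endoplasmic reticulum, was at 17.6%, then 8.46 and 9.42%, then 76.2 and 65.7% (edgeR adjusted p = 1.28e-09). PRKAR1A, the regulatory subunit of protein kinase A, was at 10.2%, then 4.09 and 8.30%, then 58.9 and 51.4% (edgeR adjusted p = 2.54e-08). These 3 were picked from the largest changes in the CFIm68 lines, so nothing is read from the order of their libraries. CEBPG, given below, had CFIm59 lines on both sides of the control. Over all 5869 pairs the median change was -2.42 percentage points in the CFIm59 lines and 5.16 in the CFIm68 lines. The share of all pairs without overlap was not counted. The CFIm59 differences of MED13, CCDC47 and PRKAR1A did not pass (edgeR adjusted p = 0.397, 0.109 and 0.481).

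MAP2K4, a kinase that activates JNK, went from 22.1% to 66.2 and 72.9% in the CFIm68 lines (edgeR adjusted p = 6.97e-05), and SPAG9, a scaffold of the same JNK pathway, from 58.2% to 98.3% in both (edgeR adjusted p = 1.01e-09). CEBPG, a bZIP transcription factor, was the chromosome 19 gene with the largest such change, from 24.4% to 69.8 and 72.0% (edgeR adjusted p = 4.93e-07). Its CFIm59 lines were at 21.6 and 27.2%, on both sides of the control. By role, 3 of 21 pre-mRNA processing genes with a pair moved to proximal (SRSF2, DAZAP1 and ELAVL1), and 2 of 13 cell cycle genes (CDC27 and PPM1D), against 10.8% of members and 25% of all genes.

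CDC27, PSMD12 and DERL2 passed in opposite directions in the 2 knockouts with edgeR. CDC27, a subunit of the anaphase-promoting complex whose sites lie at 45197801 and 45195312, had a proximal use of 57.5% in the control (95% Wilson interval 49.0 to 65.5), 23.5 and 33.3% in the CFIm59 lines and 92.9 and 94.0% in the CFIm68 lines (edgeR adjusted p = 0.0188 and 2.69e-07). PSMD12, a lid subunit of the proteasome, was at 52.4%, then 21.6 and 31.0%, then 82.7 and 87.6% (edgeR adjusted p = 0.0141 and 1.96e-05). DERL2, which serves the export of misfolded proteins from the endoplasmic reticulum, was at 83.6%, then 55.3 and 55.5%, then 97.0 and 97.8% (edgeR adjusted p = 0.0173 and 0.00345). Its CFIm59 call did not pass without line 2 (edgeR adjusted p = 0.067), nor did those of CDC27 and PSMD12 without line 1 (edgeR adjusted p = 0.141 and 0.158). With DESeq2 the CFIm59 calls of CDC27 and PSMD12 were lost (adjusted p = 0.246 and 0.233), and DERL2 had no adjusted p.

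In the CFIm59 lines 18 of 545 members moved to the distal site (3.30%, against 4.99% of all genes) and 11 to the proximal one (2.02%, against 0.988%). DESeq2 called 0 to distal, with 33 at an unadjusted p under 0.05, and 3 to proximal, and it gave no adjusted p to 10 of the 18 and 6 of the 11. Without CFIm59 line 1 or 2 the distal count was 10 or 8, without either CFIm68 line it was 30, and without CFIm59 line 1 the proximal count was 7. FOXK2, a forkhead transcription factor, was at 86.2%, then 66.7 and 48.4%, then 92.4 and 95.9%; its CFIm59 call (edgeR adjusted p = 0.00625) was lost without line 2. CCDC8, a growth-regulating gene whose 2 sites the authors class as intronic, was at 59%, then 16.7 and 17.9%, then 34.0 and 26.4% (edgeR adjusted p = 0.00161 and 0.0169). It moved to the distal site in both knockouts, though the CFIm68 call was lost with DESeq2 and without CFIm68 line 2. MATK, a kinase that inhibits Src family members, used its intronic site for 28.2% in the control, 0 of 47 reads in CFIm59 line 1, which allows a share of up to 6.38%, 3.23% in line 2, and 40.3 and 51.6% in the CFIm68 lines (edgeR adjusted p = 0.00155 for CFIm59, and 0.0652 without line 1).

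SAE1, a subunit of the enzyme that activates SUMO, moved to a site inside an intron. The proximal site is intronic, at 47679748, 33699 nt before the last-exon site, and took 1.26% of reads in the control (0.490 to 3.19), 32.7 and 34.5% in the CFIm59 lines, and 6.45 and 5.24% in the CFIm68 lines (edgeR adjusted p = 1.74e-08 for CFIm59 and 0.0133 for CFIm68). All 4 knockout lines lay above the control. With last-exon sites alone SAE1 had another pair, which did not pass. GPI, a glycolytic enzyme, had a proximal use of 0.547%, then 5.90 and 10.8%, then 0.485 and 0.852% (edgeR adjusted p = 0.000276 for CFIm59). Ribosomal protein genes RPL23A and RPL28 also moved to proximal in the CFIm59 lines, by 1.58 to 10.7 percentage points.

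RPL23A, a ribosomal protein gene at 27050951, was the reverse of CDC27. Its proximal site was used at 83.8% in the control, 95.3 and 93.8% in the CFIm59 lines and 69.1 and 61.9% in the CFIm68 lines (edgeR adjusted p = 0.00265 and 0.00218). The CFIm59 call was lost with DESeq2 and without CFIm59 line 1. TIMM50, a receptor of the mitochondrial import channel whose sites are 171 nt apart, was at 83.8%, then 87.3 and 90.2%, then 66.8 and 67.6% (edgeR adjusted p = 0.0114 for CFIm68, DESeq2 adjusted p = 0.134). NUP88, a nuclear pore protein with sites 65 nt apart, was at 81.5%, then 86.2 and 85.7%, then 64.7 and 64.8% (edgeR adjusted p = 0.0344 for CFIm68, and above 0.05 without either CFIm68 line). AMZ2 and AMZ2P1 moved to distal in the CFIm68 lines as well, but they are near-identical copies whose reads may be split between them.

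Between the knockouts 138 of 545 members used the proximal site more in the CFIm68 lines (25.3%, against 40.5% of all genes) and 45 the distal site (8.26%, against 6.08%). Chromosome 17 gave 99 of 331 and 23 of 331, and chromosome 19 gave 39 of 214 and 22 of 214. Without CFIm59 line 2 the distal count was 27, and with DESeq2 it was 21. This comparison shares the knockout lines with the others above. CDC27 differed most, by 65.0 percentage points (edgeR adjusted p = 4.79e-14).

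Site use was also taken for the high stretch of chromosome 17, which has 59 pairs from 25 to 40 Mb. In the CFIm68 lines its median log2 change was -0.02, below the 0.35 of the whole chromosome and the 0.61 of all pairs; this difference was not tested. There 5 pairs moved to proximal (8.47%, against 13.3% on chromosome 17 and 25% of all) and 2 to distal (3.39%, against 3.1% of all). In the CFIm59 lines 1 moved to proximal (1.69%, against 0.988%) and 2 to distal (3.39%, against 4.99%), with a median log2 change of -0.14, against -0.24 on chromosome 17 and -0.34 over all pairs. Median proximal use was 44.8% in the control, 46.8 and 46.1% in the CFIm59 lines and 53.5 and 50% in the CFIm68 lines. The median change per pair was -2.37 percentage points in the CFIm59 lines and -0.56 in the CFIm68 lines, so it and the difference of the medians had opposite signs.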

How the data were processed

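Each deposited value is a whole-number count of reads at 1 poly(A) site in 1 library, without normalization, and 0 columns lacked a sample. The submitters' processing notes list TopHat2 (2.1.0), deepTools (2.4) and the hg19 build. How the authors called sites is not stated there. Each of 272248 distinct sites was taken at its first listing, and reads were summed per gene. Counts were scaled by TMM and tested with edgeR 4.0.16 (glmQLFit and glmQLFTest, filterByExpr, 14635 genes, Benjamini-Hochberg over all of them, threshold 0.05) in R 4.3.3, on all 5 libraries with 1 shared spread. The lone control is assumed to vary like the knockout lines, and p-values measure the spread between cell lines. Site use was tested as a site by group term in edgeR on 5869 pairs averaging 20 or more reads together and 5 or more each. Medians used CPM with a prior count of 2. The fits were tested on simulated data. DESeq2 1.42.0 was an alternative.

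Members, lists and windows were chosen with earlier results of these data known. Named genes are the 5 higher and 5 lower per chromosome and contrast with mean counts of 50 or more and the largest change, the 6 largest site changes each way, and up to 4 most read genes per list. TOP2A, CDK12, KRT10, EIF1, TUBG1 and STAT3, and list members such as UHRF1, LIG1, NF1 and HOXB2, were added after their values were seen.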

Additional observations from a re-analysis of the deposited data

Results flagged for a closer look

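Along the chromosomes, 6 windows of 5 Mb and 1 arm had both CFIm59 lines above the median of other chromosomes and both CFIm68 lines below it. Windows elsewhere did so too. From 110 to 115 Mb of chromosome 13 the CFIm59 lines were at 1.01 and 1.36 and the CFIm68 lines at -0.85 and -0.71. From 40 to 45 Mb of chromosome 5 they were at 0.55 and 0.56, then -0.17 and -0.29. The share over all windows was not counted, so nothing is read from the count. The difference of the knockouts was not tested in any of them. Its size, CFIm68 minus CFIm59 on the log2 scale, was -0.88 from 25 to 30 Mb and -0.67 from 35 to 40 Mb of chromosome 17. It was -0.40 from 50 to 55 Mb (14 genes), -0.33 from 55 to 60 Mb, -0.23 from 5 to 10 Mb, and -0.21 over the whole short arm. On chromosome 19 it was -0.14 from 30 to 35 Mb, where both CFIm68 lines were near 0, at -0.012 and -0.007. All groups share the 1 control.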

How the results depend on the processing

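Of 243 values under other settings, 188 stayed close to the value given above, 54 moved and 1 reversed. Some of the 188 could hardly do otherwise. For the chromosome medians the replicate block entry repeats the main value. A scaling of whole libraries nearly cancels once the median of other chromosomes is taken off. For medians and share ratios, close means within the SD of the lines, which a value without 1 line nearly always meets. The 188 are thus no measure of stability. The short arm of chromosome 17 in the CFIm68 lines went from -0.050 to 0.013 with genes of 100 or more reads; the cause was not tested. With 5 or more reads the CFIm59 medians were 0.20 (chromosome 17) and 0.36 (19). With 100 or more they were 0.49 on chromosome 19, 0.49 and 0.48 on its short and long arms and 0.80 in the 25 to 40 Mb stretch, and CFIm68 against CFIm59 was -0.37 on chromosome 19. With ZNF genes kept, chromosome 19 was at 0.49, and -0.39 between the knockouts. Without the stretch, an alternative chosen after seeing the data, chromosome 17 was at 0.18, and -0.20 between the knockouts. Scaling to nuclear reads put the stretch at 0.73, a value that such a scaling can hardly change. Share ratios with mitochondrial reads were 1.02 (chromosome 17, CFIm68) and 1.30 (19, CFIm59). Without the 10 most read genes they were 1.07 (17, CFIm68), 1.34 (19, CFIm59) and 1.12 (19, CFIm68), and with last-exon sites 1.33 (19, CFIm59). DESeq2 called fewer genes: 36 higher and 9 lower for CFIm59, 2 and 2 for CFIm68, 17 and 111 between the knockouts. Its site use calls were 3 proximal and 0 distal for CFIm59 (33 distal at an unadjusted p under 0.05, against 66 in edgeR), 23 and 4 for CFIm68, and 21 distal between the knockouts. A higher read minimum gave 6 proximal for CFIm59, 26 and 7 for CFIm68, and 53 and 21 between the knockouts, with fewer genes tested. Without the low-count filter 37 genes were lower for CFIm68. The line numbers did not pair the lines (correlation of deviations 0.006, and -0.04 for members). A replicate block on them gave 8 higher and 8 lower for CFIm68. Leaving out 1 line gave -0.050 to 0.0037 for chromosome 17 and -0.043 to 0.013 for its long arm (CFIm68), and 0.42 to 0.45 for the long arm of 19 and 0.73 to 0.73 for the stretch (CFIm59). Counts without 1 line ran from 110 to 239 higher and 29 to 60 lower for CFIm59, and 29 to 49 higher and 166 to 265 lower between the knockouts. Site use counts ran from 7 to 15 proximal and 8 to 30 distal for CFIm59, and 27 to 43 distal between the knockouts. Genes under 50 reads per library, and the single control, limit what can be called.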
